A study of Mus musculus with 12 samples.

Results

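The thermogenic genes and uncoupling proteins described here are 10 genes of the 24541 gene symbols in the deposited table of mouse epididymal adipocytes: the uncoupling proteins Ucp1, Ucp2 and Ucp3, the transcriptional regulators Ppargc1a, Ppargc1b and Prdm16, the enzymes Dio2 and Elovl3, and the cytochrome c oxidase isoforms Cox8b and Cox7a1. They were chosen by gene symbol and hold 15 of the table's 36779 transcripts. RNA came from C57BL/6N mice and was sequenced in 12 libraries, 3 for each of 4 groups. Old AKO libraries came from mice aged 18 months with a knockout of Crtc2 in adipocytes, and old WT libraries from mice of that age with floxed Crtc2 (Crtc2 f/f), which the labels call wild type. Young AKO and young WT libraries came from the same genotypes at 3 months. Neither the Cre driver nor the number of mice behind a library is named in the labels, so p-values measure the spread between these libraries, which may be technical.

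Brown and beige adipocytes turn fuel into heat. Ucp1 lets protons leak back across the inner mitochondrial membrane without making ATP, and noradrenaline, acting through beta-adrenergic receptors, cyclic AMP and CREB, raises the transcription of Ucp1, of the coactivator gene Ppargc1a and of Dio2, the deiodinase that activates thyroid hormone. Crtc2 is a coactivator of CREB. Epididymal fat is a white depot of male mice in which Ucp1 is low unless the depot is strongly stimulated. Ucp2 and Ucp3 resemble Ucp1 in sequence but are not known as the main source of heat in brown fat, and Ucp2 is well known from macrophages and other immune cells.

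Libraries held 45935795 to 61125366 estimated reads, and values below are CPM (reads relative to library size) scaled by edgeR's TMM method, or deposited FPKM where genes of different length are compared. All 15 adipocyte markers were detected in every library, with a summed level of 88521 to 99020 CPM in old AKO, 58905 to 75152 in old WT, 106567 to 131038 in young AKO and 99365 to 116545 in young WT. Crtc2, the targeted gene, went against its label: it had 151, 161 and 154 CPM in the old libraries labelled AKO against 45.3, 51.6 and 49.97 CPM in old WT (log2 difference 1.66 ± 0.21, SE; adjusted p = 0.0125, edgeR). In young libraries labelled AKO it had 164, 300.3 and 280.2 CPM against 53.9, 67.2 and 79.4 CPM in young WT (1.89 ± 0.21, adjusted p = 0.0073, edgeR), so AKO below means the library so labelled. Old WT replicate 3 had the highest macrophage marker sum, and it is named beside the results it moves.

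Because Crtc2 acts through CREB, the 250 bases before the start of each member were searched for the full cyclic AMP response element TGACGTCA, for its TGACG half-site, which the full site contains, and for AGGTCA, the half-site of PPAR and thyroid hormone receptors, on both strands. RefSeq promoter windows (GRCm38.p6) matched 8 of the 10 members, all but Elovl3 and Ppargc1b. TGACGTCA stood in 1 of the 8 windows, TGACG in 4 and AGGTCA in 2, against 1.55%, 17.8% and 14.0% of 32851 windows of the same length. The members with these letters are printed in the direction of the gene, each ending at the base before the RefSeq start, which for Dio2 lies 1 base upstream of the start in the deposited table, with the matches in capitals. Dio2 (chr12:90739039-90739288, minus strand) holds the full element 95 to 88 bases before the start. Ucp1 (chr8:83290098-83290347, plus strand) holds the half-site and AGGTCA, Ucp2 (chr7:100493108-100493357, plus strand) the half-site on the other strand, and Ucp3 (chr7:100472741-100472990, plus strand) AGGTCA at 2 places.
Dio2: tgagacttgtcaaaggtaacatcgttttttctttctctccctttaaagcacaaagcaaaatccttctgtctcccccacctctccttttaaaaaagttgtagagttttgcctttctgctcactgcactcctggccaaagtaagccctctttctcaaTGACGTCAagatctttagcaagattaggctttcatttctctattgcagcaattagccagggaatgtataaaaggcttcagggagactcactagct
Ucp1: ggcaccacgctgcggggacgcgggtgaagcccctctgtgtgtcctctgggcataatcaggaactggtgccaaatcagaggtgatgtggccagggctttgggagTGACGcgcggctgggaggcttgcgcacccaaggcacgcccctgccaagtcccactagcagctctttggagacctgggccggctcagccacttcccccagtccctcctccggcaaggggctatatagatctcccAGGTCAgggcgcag
Ucp2: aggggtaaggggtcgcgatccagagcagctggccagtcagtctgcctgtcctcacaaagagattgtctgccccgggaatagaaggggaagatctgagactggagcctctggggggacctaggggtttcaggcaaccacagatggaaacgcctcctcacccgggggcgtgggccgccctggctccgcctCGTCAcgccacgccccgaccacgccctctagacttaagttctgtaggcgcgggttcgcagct
Ucp3: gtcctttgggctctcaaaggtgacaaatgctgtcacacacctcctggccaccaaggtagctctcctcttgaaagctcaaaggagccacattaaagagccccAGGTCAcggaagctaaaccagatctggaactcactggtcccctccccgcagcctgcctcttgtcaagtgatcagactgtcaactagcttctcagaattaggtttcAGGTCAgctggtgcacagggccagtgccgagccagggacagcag
The fourth window with the half-site belongs to Ppargc1a and lies before the start of a transcript variant that had 0 reads in all 12 libraries, so it is not printed. A match is a description of letters and not of binding, which was not measured.

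Levels among the members spanned a wide range when compared per length. By mean FPKM Ucp2 was the highest member in every group, at 81.0 ± 5.30 FPKM in old AKO, 208 ± 133 in old WT, 43.9 ± 11.6 in young AKO and 54.9 ± 10.2 in young WT (SD, n = 3 each). Ucp3, Cox8b and Cox7a1 followed, with group means of 2.84 to 19.9 FPKM. The ranges of Ucp3 and Cox8b overlapped in both young groups, those of Ucp3 and Cox7a1 in old WT, and those of Cox7a1 and Ppargc1b in young WT. The regulators and Dio2 lay at 0.345 to 1.79 FPKM. Among these, neighbours in the order overlapped with few exceptions: Ppargc1b with the next gene in both AKO groups, and Ppargc1b with Ppargc1a and Ppargc1a with Dio2 in old WT. Mean Elovl3 stayed at or under 0.112 FPKM. Ucp1 was the lowest or among the 4 lowest members in each group, at 0.0204 ± 0.0353 FPKM in old AKO, 0.858 ± 1.21 in old WT, 0 in young AKO and 0.0351 ± 0.0136 in young WT.

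**Figure D1:**
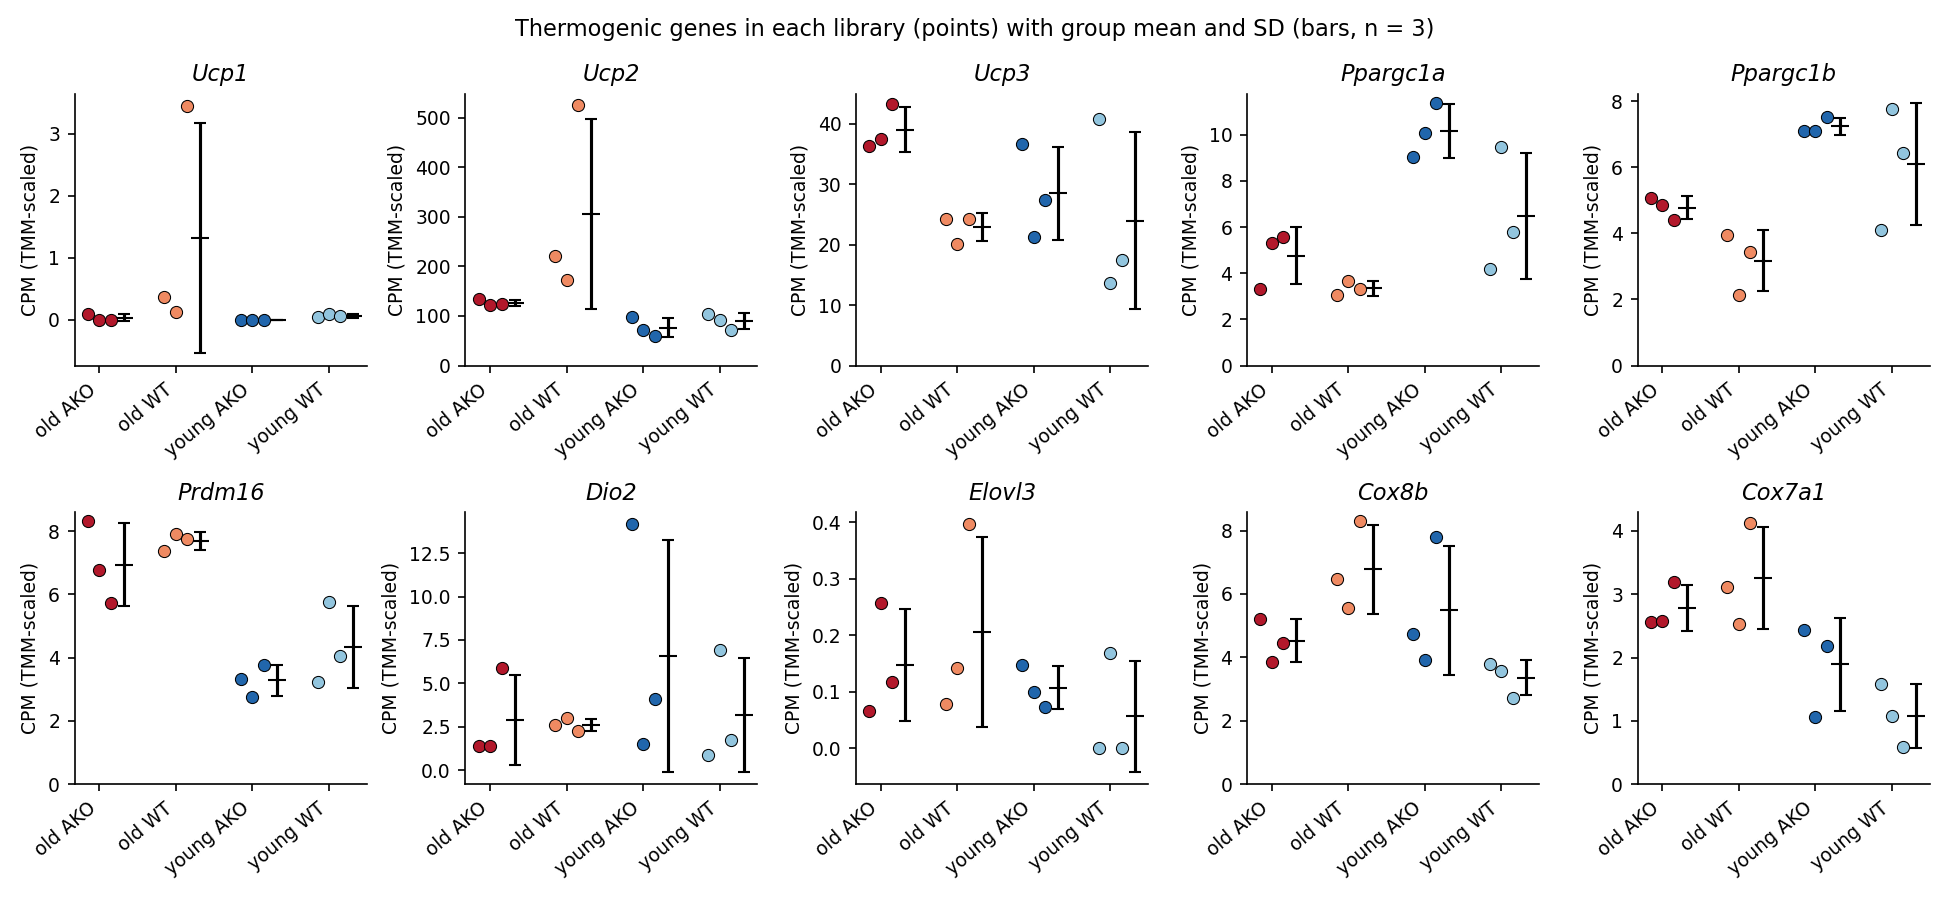
CPM of the 10 members in each library (points), with the group mean and SD beside them (bars, n = 3), in a panel per gene with its own axis. Ucp2 in old WT replicate 3 reached 525 CPM, and Ucp1 in that library 3.45 CPM, while Prdm16 lay higher and Ppargc1a lower in the old groups than in the young group of the same genotype.

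Of the 10 members, 8 had enough reads to be tested among 15068 genes, and Ucp1 and Elovl3 fell below the filter on low counts. With age the most members moved in WT: 4 rose and 2 fell in old WT relative to young WT, where 14.2% of all genes tested rose and 8.73% fell (22.9% in all, edgeR, adjusted p under 0.05). Old AKO relative to young AKO gave 1 member that rose and 1 that fell, against 10.4% and 7.93% of all genes (18.4% in all). An unadjusted p under 0.05 was reached by 6 of the 8 in WT and 3 of the 8 in AKO, against 37.8% and 35.4% of all genes. Between genotypes 0 members passed at either age by edgeR. At 18 months 4 of the 8 had an unadjusted p under 0.05 (DESeq2 called 1 of them, Ucp2), where 22% of all genes did and 5.95% were called, 0.796% higher and 5.16% lower in old AKO. At 3 months 2 of the 8 had an unadjusted p under 0.05 (DESeq2 called 0), where 19.5% of all genes did and 0.976% were called, 0.186% higher and 0.79% lower in young AKO. The median log2 difference of the 8 members was 0.38 in old WT relative to young WT, against 0.03 over all genes tested, and 0.09, against -0.01, in old AKO relative to young AKO. It was -0.00022, against -0.01, in old AKO relative to old WT, and 0.45, against 0.01, in young AKO relative to young WT. The comparisons share groups (old WT enters both an age and a genotype comparison), so their values stand side by side and are not independent.

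**Figure D2:**
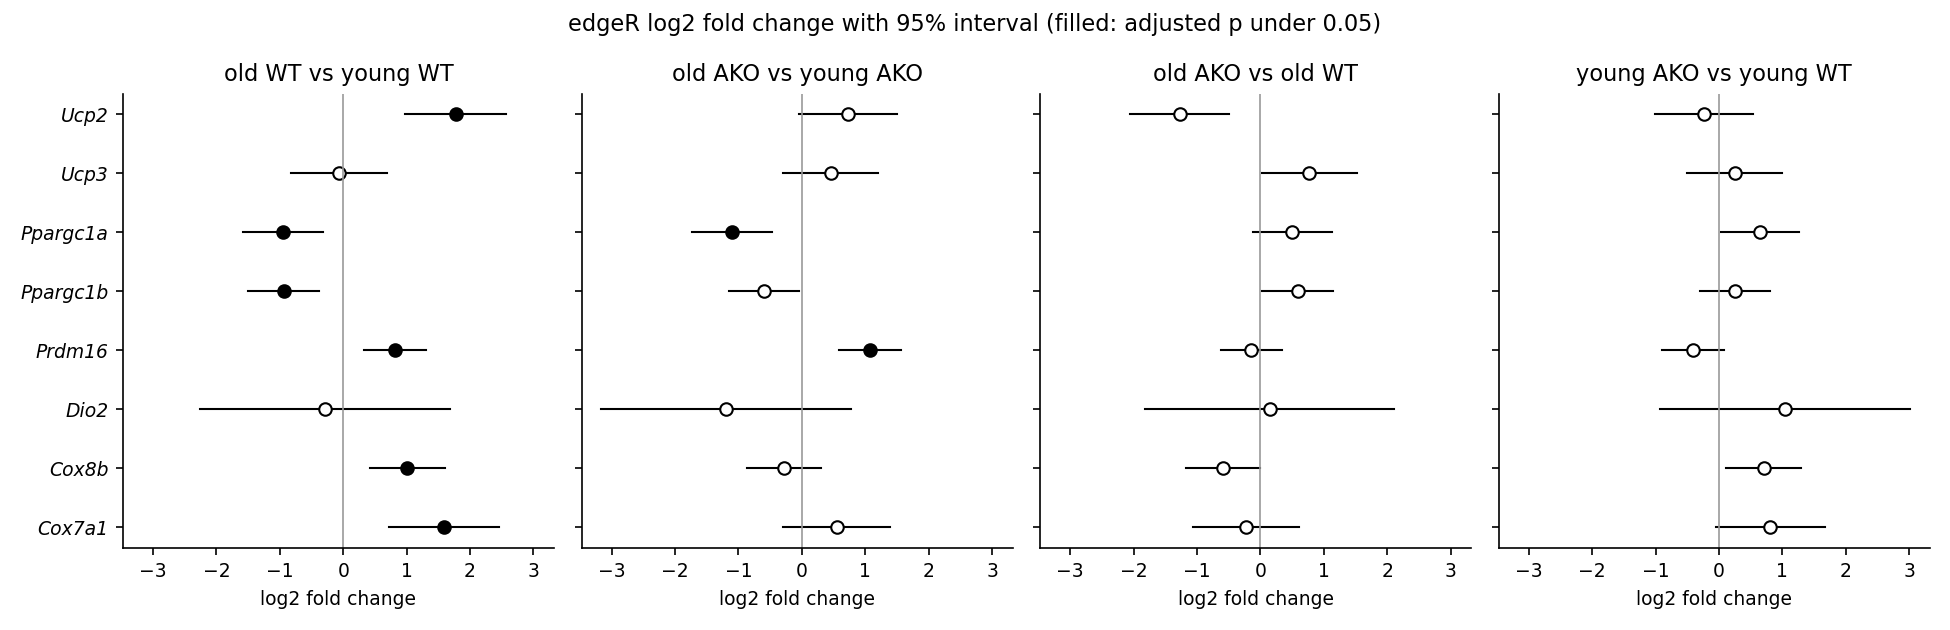
Log2 fold change (x axis) of the 8 tested members (y axis) in 4 comparisons, the group named first over the group named second, with the 95% interval of the edgeR fit as a line and filled points for an adjusted p under 0.05. Filled points stand for 6 members in old WT relative to young WT (Ucp2, Ppargc1a, Ppargc1b, Prdm16, Cox8b and Cox7a1), 2 in old AKO relative to young AKO (Ppargc1a and Prdm16) and 0 between genotypes.

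Ucp2 (chromosome 7, 100493358 to 100499629, mm10), a mitochondrial carrier, rose with age in WT. It had 134, 123 and 124 CPM in old AKO and 220.3, 172 and 525 CPM in old WT. In young AKO it had 97.7, 71.6 and 59.5 CPM, and in young WT 104, 92.2 and 72.2 CPM. All old WT libraries lay above all others, and all old AKO libraries lay between old WT and the young groups. The log2 difference of old WT to young WT was 1.77 ± 0.36 (SE, adjusted p = 0.0085, edgeR), and it was 1.12 with an adjusted p of 0.0113 (edgeR) without old WT replicate 3. The difference of old AKO to young AKO was 0.73 ± 0.35 (adjusted p = 0.162, edgeR), and its adjusted p was 0.0266 (edgeR) without old WT replicate 3, which enters that fit through the shared spread.

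Ucp2 was lower in old AKO than in old WT by a log2 difference of -1.27 ± 0.35, with a 95% interval of -2.05 to -0.49, and did not pass (adjusted p = 0.0617, edgeR). With DESeq2 the adjusted p was 0.0054. Without old WT replicate 2 it was -1.52 (adjusted p = 0.021, edgeR), and without old WT replicate 3 it was -0.62 (adjusted p = 0.187, edgeR). In young AKO relative to young WT the difference was -0.23 ± 0.35 (adjusted p = 0.775, edgeR), and the genotype differences at the 2 ages differed by -1.04 ± 0.50 (adjusted p = 0.551, edgeR). Markers of macrophages, which express Ucp2, moved with it: all 15 were detected in every library, and their sum was 465 to 633 CPM in old AKO, 1287 to 5591 in old WT, 267 to 315 in young AKO and 408 to 545 in young WT. Of these markers 14 of 15 rose in old WT relative to young WT (14.2% of all genes tested), and 14 of 15 fell in old AKO relative to old WT (5.16% of all genes). Their part in the Ucp2 values was not tested, and in bulk RNA fewer cells of a type cannot be told apart from less RNA per cell. The genes whose log2 CPM followed Ucp2 most closely over the 12 libraries were Cyba, Ticam2 and Arl11 (Pearson r = 0.985, 0.983 and 0.982, among 12047 genes compared). The 12 libraries share the old WT to young difference and old WT replicate 3, so these values describe this set of libraries.

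Ucp3 (chromosome 7, 100472991 to 100486432, mm10), the neighbour of Ucp2 on the same strand and best known from skeletal muscle, did not pass in any comparison. It had 36.2, 37.5 and 43.3 CPM in old AKO against 24.1, 20.1 and 24.3 CPM in old WT. Values in young AKO were 36.7, 21.3 and 27.4 CPM against 40.7, 13.6 and 17.5 CPM in young WT. The old groups did not overlap and the young groups did. The log2 difference of old AKO to old WT was 0.77 ± 0.34, with a 95% interval of 0.02 to 1.52 (adjusted p = 0.218, edgeR). It passed in a fit of the old groups alone (adjusted p = 0.0452, edgeR) and without young WT replicate 1 (adjusted p = 0.0382, edgeR), the library with the highest young value. In old WT relative to young WT the difference was -0.07 ± 0.34 (adjusted p = 0.906, edgeR), and 0.55 without that library. Per length, Ucp3 made up 16.5 ± 1.78% of the Ucp2 and Ucp3 FPKM in old AKO, 5.50 ± 2.27% in old WT, 19.5 ± 3.39% in young AKO and 14.1 ± 5.73% in young WT (SD, n = 3 each). Skeletal muscle markers, of which 4 to 9 of 15 were at 0 in a library, summed to 39.0 to 69.3 CPM in old AKO, 55.5 to 61.7 in old WT, 16.9 to 71.1 in young AKO and 58.9 to 224 in young WT. Tmem129, Tusc5 and Chmp7 followed Ucp3 most closely over the 12 libraries (Pearson r = 0.913, 0.910 and 0.910).

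**Figure D3:**
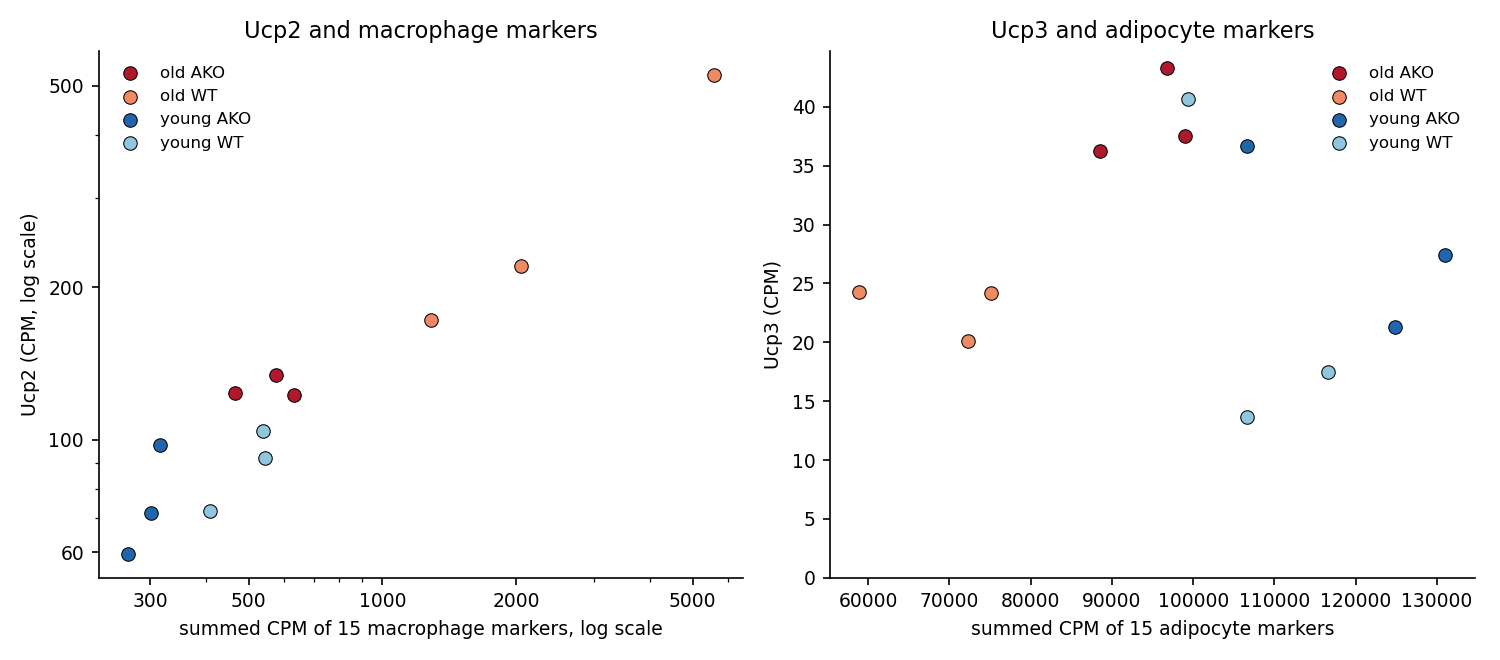
Left, Ucp2 CPM against the summed CPM of 15 macrophage markers in each library, both on log axes. Right, Ucp3 CPM against the summed CPM of 15 adipocyte markers, with colours for the 4 groups. The library with the highest macrophage sum, 5591 CPM in old WT replicate 3, had the highest Ucp2 value, 525 CPM, while the old WT libraries had the lowest adipocyte sums and 20.1 to 24.3 CPM of Ucp3.

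Ucp1 (chromosome 8, 83290348 to 83298456, mm10), the gene that defines brown and beige fat, was near the limit of detection. It had 6, 0 and 0 estimated reads in old AKO and 24, 7 and 174 in old WT. There were 0 reads in each of the 3 young AKO libraries, and 2, 5 and 3 in young WT. These counts are 0.0985, 0 and 0 CPM in old AKO, 0.372, 0.125 and 3.45 CPM in old WT, 0 in young AKO and 0.0402, 0.0942 and 0.056 CPM in young WT. A library without a read allows up to 3 reads, or 0.0466 to 0.0635 CPM over the 12 libraries, which covers counting error only. Old WT replicate 3 held 174 of the 205 reads of its group, or 84.9%. By estimated reads the old WT libraries were above all others and the young AKO libraries below all young WT libraries. The 3 reads that a count of 0 allows are as many as or more than young WT replicates 1 and 3 held. Taken singly, these 2 libraries could not be told apart from young AKO libraries at this depth. As groups, young AKO held 0 reads and young WT 10, and the difference did not pass with DESeq2 (log2 -4.14, adjusted p = 0.182). An exact two-sided permutation test of 3 against 3 libraries cannot give a p below 0.1. That p, 0.1, was reached in old AKO relative to old WT, in old WT relative to young WT and in young AKO relative to young WT. With no filter on low counts the edgeR adjusted p was 0.106 for old AKO relative to old WT and 0.0766 for old WT relative to young WT, and with DESeq2 it was 0.0098 and 0.0192.

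Of the coactivators of mitochondrial biogenesis, Ppargc1a fell with age in both genotypes and Ppargc1b in WT. Ppargc1a (chromosome 5, 51454249 to 51553921, mm10), which encodes PGC-1alpha, a coactivator that drives mitochondrial and thermogenic genes, had 3.33, 5.33 and 5.59 CPM in old AKO and 3.06, 3.68 and 3.31 CPM in old WT. In young AKO it had 9.06, 10.1 and 11.4 CPM, and in young WT 4.18, 9.49 and 5.79 CPM. Within each genotype the old libraries lay below all young ones. The log2 difference was -1.10 ± 0.28 in old AKO relative to young AKO (adjusted p = 0.0257, edgeR) and -0.95 ± 0.29 in old WT relative to young WT (adjusted p = 0.0358, edgeR). The call in AKO is lost without old AKO replicate 1 or 2 or young AKO replicate 3 (-0.90, -1.19 and -1.01), and with transcripts not summed. The call in WT is lost in 11 of 23 alternatives: with limma-voom, both FPKM scales, transcripts not summed or only the WT groups, and when old AKO replicate 2, any library of old WT, or young WT replicate 2 or 3 is left out, with log2 values from -1.19 to -0.58 over all libraries left out in turn. AKO was higher than WT by 0.50 ± 0.28 in old mice (adjusted p = 0.331, edgeR) and by 0.65 ± 0.28 in young mice (adjusted p = 0.235, edgeR), and neither passed.

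Ppargc1b (chromosome 18, 61298136 to 61400431, mm10), which encodes the related coactivator PGC-1beta, had 5.07, 4.86 and 4.41 CPM in old AKO against 3.96, 2.14 and 3.43 CPM in old WT. Young AKO libraries had 7.09, 7.10 and 7.53 CPM against 4.10, 7.76 and 6.42 CPM in young WT. Old WT lay below old AKO and below young WT without overlap. It fell in old WT relative to young WT by 0.94 ± 0.26 on the log2 scale (adjusted p = 0.0251, edgeR). That call is lost in 7 of 23 alternatives. The 7 include the fits without replicate 2 or 3 of either WT group, the fit of only the WT groups, and the replicate number as a block (adjusted p = 0.0508, edgeR). Log2 values in WT ran from -1.17 to -0.73 over all libraries left out in turn. The difference of old AKO to young AKO was -0.60 ± 0.25 (adjusted p = 0.118, edgeR), and in old AKO relative to old WT it was 0.59 ± 0.25 (adjusted p = 0.206, edgeR). The third member of this coactivator family, Pprc1, had 17.1 ± 3.33 CPM in old AKO, 17.7 ± 1.72 in old WT, 23.7 ± 5.53 in young AKO and 20.5 ± 1.63 in young WT (SD, n = 3 each) and did not pass. Over the 12 libraries Ppargc1a and Ppargc1b followed each other (Pearson r = 0.811 of log2 CPM), while Ppargc1a and Ucp2 ran in opposite directions (r = -0.758). Both values take in the age differences between groups, and no value within groups was computed for these pairs. The closest genes were Lrtm1, Bmper and Dctn2 for Ppargc1a (r = 0.971, 0.969 and 0.961) and Kcnk2, Sephs2 and Ttyh2 for Ppargc1b (r = 0.950, 0.942 and 0.932). Adipocyte markers moved with the 2 coactivators in WT: 7 of 15 fell in old WT relative to young WT, where 8.73% of all genes fell. In old AKO relative to young AKO 1 of 15 fell, where 7.93% of all genes fell. By direction alone 14 of 15 lay below 0 in WT (median log2 difference -0.50) and 11 of 15 in AKO (median -0.28). The part of these markers in the result was not tested.

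Prdm16 (chromosome 4, 154316125 to 154636873, mm10), a zinc-finger protein that steers cells to the brown and beige fate, rose with age in both genotypes. It had 8.32, 6.76 and 5.72 CPM in old AKO and 7.36, 7.91 and 7.75 CPM in old WT. The young AKO libraries had 3.32, 2.76 and 3.75 CPM, and the young WT libraries 3.22, 5.74 and 4.05 CPM. Every old library but old AKO replicate 3 lay above all 6 young libraries, and within each genotype the ages did not overlap. The log2 difference was 1.08 ± 0.22 in old AKO relative to young AKO (adjusted p = 0.0119, edgeR) and 0.82 ± 0.22 in old WT relative to young WT (adjusted p = 0.0241, edgeR). The call in AKO is lost without old AKO replicate 1 (0.93, adjusted p = 0.0559, edgeR) and with transcripts not summed. Over 23 alternatives the call in WT is lost in 6, and in 1, transcripts not summed, the direction changes. The 6 include the fit of only the WT groups and those without any library of old WT or without young WT replicate 3. Log2 values in WT were 0.65 to 1.08 over all libraries left out in turn. Genotypes differed by -0.15 ± 0.22 in old mice and -0.40 ± 0.22 in young mice (adjusted p = 0.739 and 0.349, edgeR). Markers of other cells rose in the old groups as well: 8 of 9 mesothelial and 9 of 12 endothelial markers in old AKO relative to young AKO, and 3 of 9 and 3 of 12 in old WT relative to young WT. Progenitor and fibroblast markers rose in 7 of 12 and macrophage markers in 5 of 15 in old AKO relative to young AKO, and in 10 of 12 and 14 of 15 in old WT relative to young WT. Over all genes tested 10.4% rose in this AKO comparison and 14.2% in this WT comparison. The progenitor and fibroblast sum was 1579 to 1797 CPM in old AKO, 2347 to 2521 in old WT, 1492 to 1713 in young AKO and 1534 to 1929 in young WT. The mesothelial sum was 51.3 to 119 CPM in old AKO, 93.8 to 171 in old WT, 8.92 to 27.8 in young AKO and 22.0 to 83.2 in young WT, and the endothelial sum 984 to 1523, 1291 to 2337, 506 to 690 and 790 to 1512 CPM in these groups. Their part in the Prdm16 result was not tested. Slc12a5, Bambi-ps1 and Plscr2 followed Prdm16 most closely (r = 0.973, 0.967 and 0.955).

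The assignment of reads to transcript variants differed between replicates for the 2 regulators with several variants in the table, Prdm16 with 4 and Ppargc1a with 3. For Prdm16, variant 4 had the most reads in 7 libraries, variant 2 in 3 and variant 1 in 2. Replicates of 1 group differed in this: variant 2 held 404 and 283 reads in old WT replicates 1 and 2 and 26 in replicate 3, where variant 4 held 241. For Ppargc1a, variant 1 had the most reads in 11 libraries, and in old WT replicate 3 it had 0 while variant 2 held all 167 reads. Tested by its most abundant variant in place of the sum, Prdm16 gave a log2 difference of -0.59 in old WT relative to young WT (adjusted p = 0.884, edgeR) and Ppargc1a one of -1.39 (adjusted p = 0.513, edgeR). The values of both genes above are sums over their variants.

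Of the 2 enzymes, Dio2 gave no call and Elovl3 had too few reads to be tested with all libraries. Dio2 (chromosome 12, 90724552 to 90739037, mm10) had 1.40, 1.38 and 5.87 CPM in old AKO against 2.58, 2.98 and 2.26 CPM in old WT. In young AKO it had 14.2, 1.52 and 4.08 CPM against 0.864, 6.93 and 1.75 CPM in young WT. A single library stood high in each of old AKO, young AKO and young WT, and all groups overlapped. The log2 difference was 0.14 ± 0.89 in old AKO relative to old WT, with a 95% interval of -1.82 to 2.11 (adjusted p = 0.946, edgeR), and 1.05 ± 0.89 in young AKO relative to young WT, with an interval of -0.92 to 3.02 (adjusted p = 0.572, edgeR). With age it was -1.19 ± 0.90 in AKO and -0.29 ± 0.89 in WT (adjusted p = 0.369 and 0.839, edgeR), so changes of a few fold were not detectable for this gene with these libraries. Wars, Gda and Ube2k followed Dio2 most closely (r = 0.908, 0.890 and 0.867). Elovl3 (chromosome 19, 46131899 to 46135694, mm10), the elongase of very long fatty acids that cold raises in brown fat, had 4, 16 and 7 reads in old AKO and 5, 8 and 20 in old WT, and 7, 5 and 4 in young AKO and 0, 9 and 0 in young WT. Its groups overlapped in all 4 comparisons, with exact permutation p-values (two-sided) of 0.3 to 0.7. Without young WT replicate 2, which held all 9 reads of its group, Elovl3 was called higher in old WT relative to young WT (adjusted p = 0.0331, edgeR), against libraries that were both at 0. Among the other elongases, Elovl1, Elovl5 and Elovl6 had means of 36.2, 36.4 and 8.19 FPKM in old AKO against 0.0739 for Elovl3, while Elovl2, Elovl4 and Elovl7 had 0.0627, 0.0123 and 0.0515 FPKM.

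The muscle and brown fat isoforms of cytochrome c oxidase rose with age in WT. Cox8b (chromosome 7, 140898942 to 140900446, mm10) had 5.22, 3.86 and 4.46 CPM in old AKO and 6.46, 5.55 and 8.30 CPM in old WT. Young AKO had 4.72, 3.92 and 7.79 CPM, and young WT 3.78, 3.58 and 2.73 CPM. Old WT lay above young WT and above old AKO, and young AKO above young WT, without overlap. The log2 difference of old WT to young WT was 1.01 ± 0.27 (adjusted p = 0.0225, edgeR), and that of old AKO to young AKO -0.28 ± 0.26 (adjusted p = 0.478, edgeR). Between genotypes it was -0.58 ± 0.26 in old AKO relative to old WT (adjusted p = 0.225, edgeR) and 0.71 ± 0.27 in young AKO relative to young WT (adjusted p = 0.177, edgeR). The difference between those values, -1.29 ± 0.38, had an unadjusted p of 0.0056 in the fit across all genes and an adjusted p of 0.507 (edgeR), where 0.00664% of all genes were called and 9.35% had an unadjusted p under 0.05. Tnfaip2, Gadd45b and Ubtd1 followed Cox8b most closely (r = 0.910, 0.903 and 0.885).

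Cox7a1 (chromosome 7, 30184171 to 30186030, mm10) had 2.56, 2.58 and 3.20 CPM in old AKO and 3.12, 2.54 and 4.12 CPM in old WT. Young AKO libraries had 2.43, 1.06 and 2.19 CPM, and young WT 1.59, 1.07 and 0.579 CPM. All old libraries lay above all young libraries. The log2 difference was 1.59 ± 0.39 in old WT relative to young WT (adjusted p = 0.0177, edgeR) and 0.55 ± 0.38 in old AKO relative to young AKO (adjusted p = 0.327, edgeR). Their difference, -1.04 ± 0.54, did not pass (adjusted p = 0.583, edgeR), so the age effects were not shown to differ between genotypes. The WT calls of Cox8b and Cox7a1 are both lost without old WT replicate 3 (0.82 and 1.38) and without young WT replicate 3 (0.88 and 1.29), and that of Cox8b also without young WT replicate 2 (1.06, adjusted p = 0.0506, edgeR). Over 23 alternatives the call of Cox8b is lost in 6 and that of Cox7a1 in 4, the fit of only the WT groups among them. Of 6 tested markers of skeletal muscle, a tissue that expresses both isoforms, 1 rose in old WT relative to young WT (median 0.73), where 14.2% of all genes rose. The summed levels of these markers stand beside Ucp3. The macrophage markers (14 of 15) and the progenitor and fibroblast markers (10 of 12) rose in this comparison too, and the part of these cells in the result was not tested. The genes closest to Cox7a1 were Cdca7l, Otop1 and Plppr4 (r = 0.980, 0.953 and 0.941), of which Otop1, a proton channel, is itself a brown fat marker.

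Both isoforms stayed a small share beside their ubiquitous counterparts. Per length, Cox8b made up 1.21 ± 0.178% of Cox8a and Cox8b together in old AKO, 2.04 ± 0.562% in old WT, 1.17 ± 0.374% in young AKO and 0.912 ± 0.201% in young WT (SD, n = 3 each). Cox7a1 made up 4.31 ± 0.632% of Cox7a1 and Cox7a2 in old AKO, 5.38 ± 1.43% in old WT, 2.39 ± 0.833% in young AKO and 1.90 ± 0.916% in young WT. In old WT relative to young WT the counterparts did not pass, with log2 differences of -0.16 ± 0.09 for Cox8a and 0.04 ± 0.08 for Cox7a2 (adjusted p = 0.227 and 0.718, edgeR). Both fell in old AKO relative to young AKO, Cox8a by 0.31 ± 0.09 and Cox7a2 by 0.30 ± 0.08 on the log2 scale (adjusted p = 0.0417 and 0.0242, edgeR). Of 13 tested paralogues of the members, 1 rose in old WT relative to young WT (Cox7a2l, 0.38 ± 0.12, adjusted p = 0.0475, edgeR), where 14.2% of all genes rose. In old AKO relative to young AKO 3 of the 13 rose and 2 fell, Cox8a and Cox7a2 being those that fell, where 10.4% of all genes rose and 7.93% fell. Cox7a2 rose in young AKO relative to young WT (0.45 ± 0.08, adjusted p = 0.0298, edgeR), where 0.186% of all genes rose.

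**Figure D4:**
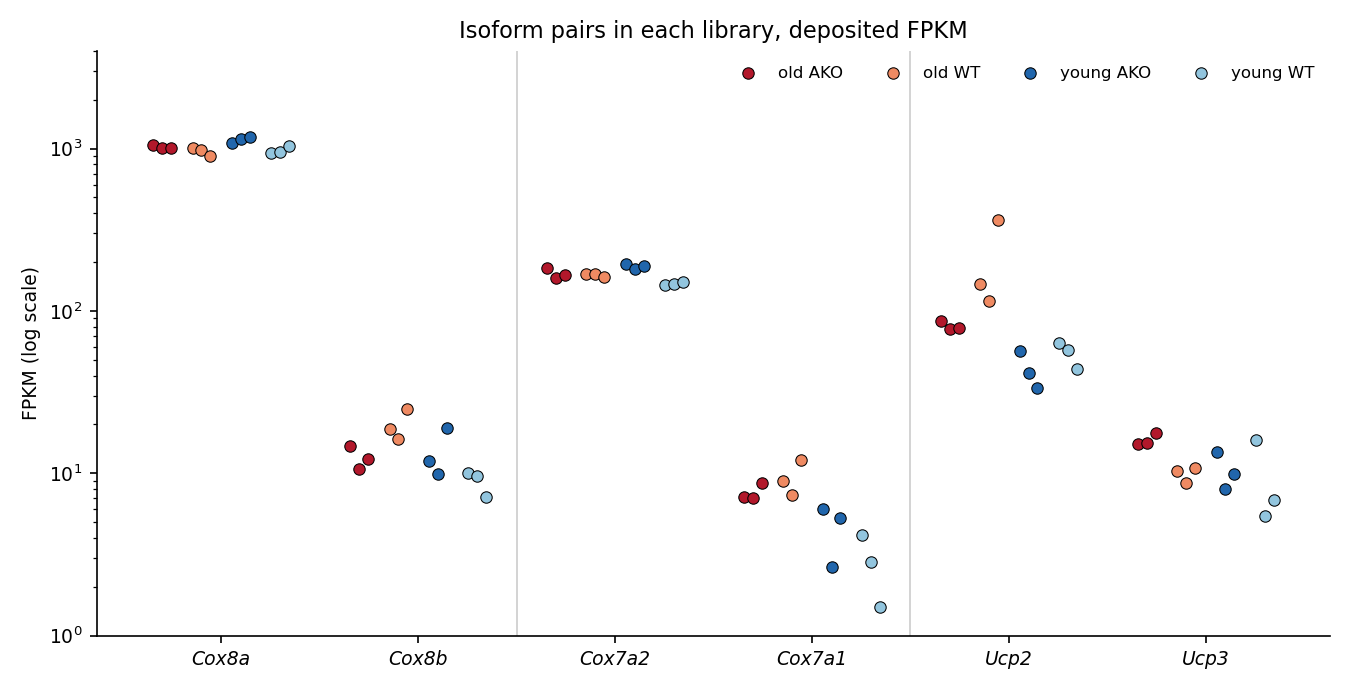
Deposited FPKM on a log axis for the pairs Cox8a and Cox8b, Cox7a2 and Cox7a1, and Ucp2 and Ucp3 in each library (points, coloured by group). Cox8a lay near 1000 FPKM and Cox8b at 7.14 to 24.7 FPKM, and Ucp2 at 33.5 to 360.5 FPKM lay above Ucp3 in every library.

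Genes known to act with the members were described by their counts, beside the share of all genes tested. Over all genes tested 14.2% rose and 8.73% fell in old WT relative to young WT. In old AKO relative to young AKO 10.4% rose and 7.93% fell. Of 20 other brown and beige fat markers, 19 were in the table and 14 tested: 7 rose and 1 fell in old WT relative to young WT, with a median log2 difference of 1.82 against 0.03 over all genes, and 3 rose and 1 fell in old AKO relative to young AKO (median 0.98 against -0.01). Those with the smallest p in WT were Epsti1 (1.86 ± 0.29, adjusted p = 0.0044), the pyruvate dehydrogenase kinase Pdk4 (1.58 ± 0.29, adjusted p = 0.0063), Otop1 (4.43 ± 0.94, adjusted p = 0.0101) and Cyp2b10, which fell (-3.40 ± 0.75, adjusted p = 0.0114, all edgeR). Otop1 had a mean of 2.35 ± 1.64 CPM in old AKO, 6.22 ± 2.63 in old WT, 0.566 ± 0.383 in young AKO and 0.291 ± 0.360 in young WT (SD, n = 3 each). Lhx8, a homeobox gene, had 79 reads over the 3 old AKO libraries and 123 over old WT, and 0 in all 6 young libraries. Other markers of the list did not rise: Zic1 had 0 reads in all 12 libraries. Ebf2 had 30.6, 27.1 and 27.6 CPM in old WT against 33.8, 48.7 and 42.8 CPM in young WT. By direction alone 12 of the 14 tested lay above 0 in old WT relative to young WT and 2 below. Without old WT replicate 3 the count in WT was 4 higher and 1 lower of 16 tested, and the median 1.25. The summed level of these markers was 187 to 264 CPM in old AKO, 218 to 472 in old WT, 113 to 122 in young AKO and 130 to 155 in young WT, and 2 to 6 of the 19 were at 0 in a library. The macrophage markers described beside Ucp2 rose in the same comparison in WT, and their part in this count was not tested. Between genotypes 1 of the 14, Epsti1, fell in old AKO relative to old WT (-1.57 ± 0.29, adjusted p = 0.0189, edgeR), where 5.16% of all genes fell. None of the 14 passed in young AKO relative to young WT, where 0.976% of all genes did.

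Of 28 tested regulators of the thermogenic programme, 10 fell and 1 rose in old WT relative to young WT (median -0.29 against 0.03 over all genes), and 5 fell and 0 rose in old AKO relative to young AKO (median -0.25 against -0.01). Over all genes tested 8.73% fell and 14.2% rose in WT, and 7.93% fell and 10.4% rose in AKO, which holds for the lists that follow as well. In WT these were led by the nuclear receptor genes Rxra (-0.85 ± 0.12, adjusted p = 0.0036) and Ppard (-0.59 ± 0.11, adjusted p = 0.0060), the coactivator Ncoa1 (-0.72 ± 0.14, adjusted p = 0.0075) and Nrip1 (-1.43 ± 0.30, adjusted p = 0.0089, all edgeR), a corepressor of energy-burning genes. In AKO the homeobox gene Hlx (-1.75 ± 0.29, adjusted p = 0.0051) and Irf4 (-1.65 ± 0.35, adjusted p = 0.0128, both edgeR), a partner of PGC-1alpha in brown fat, came first. Without old WT replicate 3 the count in WT was 6 lower and 0 higher of 29 tested. Of 17 genes of the beta-adrenergic and cyclic AMP input, 2 rose in old AKO relative to old WT: the beta-3 receptor Adrb3, at 973 ± 30.5 CPM in old AKO and 509 ± 111 CPM in old WT (0.93 ± 0.22, adjusted p = 0.032, edgeR), and the adenylyl cyclase Adcy6 (0.45 ± 0.10, adjusted p = 0.0249, edgeR). Over all genes tested 0.796% rose in that comparison. Without old WT replicate 3 neither Adrb3 nor Adcy6 passed. Among the genes of this list reported here, those that fell in old WT relative to young WT were Adrb3 (-0.97 ± 0.22, adjusted p = 0.0117), Adcy6 (-0.33 ± 0.10, adjusted p = 0.0343) and the Crtc2 relative Crtc1 (-0.34 ± 0.11, adjusted p = 0.049, all edgeR), and without old WT replicate 3 the count that fell was 1. Prkaca, a catalytic subunit of protein kinase A, was the 1 gene that fell in old AKO relative to young AKO (-0.32 ± 0.10, adjusted p = 0.0496, edgeR). Adipocyte markers moved in the same directions as Adrb3 and Adcy6. In old AKO relative to old WT 2 of 15 rose, and 14 of 15 lay above 0 and 1 below (median 0.43). In old WT relative to young WT 7 of 15 fell. The part of these markers in the Adrb3 and Adcy6 values was not tested.

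Of 17 mitochondrial biogenesis targets of PGC-1, 8 fell in old AKO relative to young AKO (median -0.46 against -0.01 over all genes), led by the superoxide dismutase Sod2 (-0.86 ± 0.13, adjusted p = 0.0037) and the respiratory chain subunits Cox5b (-0.51 ± 0.10, adjusted p = 0.0099), Sdhb (-0.47 ± 0.09, adjusted p = 0.0107) and Uqcrc2 (-0.65 ± 0.13, adjusted p = 0.0118, all edgeR). In old WT relative to young WT 3 fell (median -0.21), and 0 passed without old WT replicate 3. Cox5b rose in young AKO relative to young WT (0.52 ± 0.10, adjusted p = 0.0434, edgeR), where 0.186% of all genes rose. Of 8 tested genes of creatine and calcium cycling, which make heat without Ucp1, 3 rose in old WT relative to young WT: Ryr2 (2.53 ± 0.48, adjusted p = 0.0071), Slc6a8 (1.18 ± 0.30, adjusted p = 0.0197) and Gatm (1.72 ± 0.52, adjusted p = 0.0376, all edgeR). Old WT replicate 3 stood high for 2 of these: Slc6a8 had 34.9, 33.3 and 77.3 CPM in old WT, and Gatm 6.39, 4.30 and 18.8 CPM. In old AKO relative to young AKO 2 of the 8 rose, Alpl (1.84 ± 0.50, adjusted p = 0.0303) and Ryr2 (1.68 ± 0.48, adjusted p = 0.0345, both edgeR). Gatm, 1 of the 8, fell in old AKO relative to old WT (-2.08 ± 0.53, adjusted p = 0.0452, edgeR), a call lost without old WT replicate 3. Over all genes tested 5.16% fell in that comparison. Of 6 other mitochondrial carriers, 0 passed in old WT relative to young WT, and 2 rose and 1 fell in old AKO relative to young AKO. Those that rose, Slc25a27 (1.57 ± 0.40, adjusted p = 0.0248) and Slc25a14 (0.60 ± 0.18, adjusted p = 0.0381, both edgeR), are also named brain uncoupling proteins. Slc25a27 had 1.10, 1.03 and 0.791 CPM in old AKO, and Slc25a14 3.55, 4.04 and 3.65 CPM. The carrier that fell was the far more abundant Slc25a5 (-0.64 ± 0.17, adjusted p = 0.0279, edgeR). Its mean was 336 CPM in old AKO and 523 CPM in young AKO.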

How the data were processed

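Poly-A RNA of epididymal primary adipocytes was sequenced in 12 libraries, per the labels' protocols. Per the submitters' processing notes, which give no role or order, the build was mm10 and the tools were StringTie 1.3.4d, Bowtie2, HISAT and HISAT2 2.1.0. The deposited table holds an estimated count of reads (whole numbers, not scaled for depth) and an FPKM value per transcript and library. Estimated counts were summed per gene symbol. Genes kept by filterByExpr were tested with edgeR 4.0.16 (R 4.3.3), quasi-likelihood F-test, TMM scaling and all 12 libraries in 1 model with the 4 groups as terms; edgeR's common coefficient of biological variation came to 24.7%. Two-sided p-values were adjusted by Benjamini-Hochberg over 15068 genes, and a gene was called at an adjusted p under 0.05. No 2 libraries of the same group agreed within sampling noise, and libraries of different groups were not compared in this way. The script was tested on simulated data. Counts and depth limit the precision for genes with few reads, and intervals cover the spread between libraries.

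All members are named in every comparison, up to 4 genes with the smallest p beside the count of each list, and for each tested member the 3 genes with the highest correlation of log2 CPM (prior count 1) among genes with a mean of at least 1 CPM, unnamed models passed over. Paralogues of the members (Pprc1, the elongases, Cox8a, Cox7a2 and Cox7a2l) are named for their relation to a member, and the Otop1, Lhx8, Zic1 and Ebf2 levels were added after their values were seen. Members, lists and alternatives were chosen with earlier results of these data known. The alternatives were DESeq2 1.42.0, limma 3.58.1 (voom, and trend on log2 of deposited FPKM with a pseudocount of 1 or 0.1), RLE size factors, other low-count filters, transcripts not summed, the replicate number as a block, only the groups compared, and each library left out in turn or old WT replicate 3 and young WT replicate 1 left out together. A result for 1 gene of the beta-adrenergic list in old WT relative to young WT is not reported here.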

Additional observations from a re-analysis of the deposited data

Results flagged for a closer look

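Cox8b was singled out because its genotype difference ran in opposite directions at the 2 ages. All 3 old AKO libraries (3.86 to 5.22 CPM) lay below all old WT libraries (5.55 to 8.30 CPM), while all 3 young AKO libraries (3.92 to 7.79 CPM) lay above all young WT libraries (2.73 to 3.78 CPM). The genotype difference at 18 months minus that at 3 months was -1.29 on the log2 scale, which did not pass over all genes (adjusted p = 0.507, edgeR) and ranged from -1.48 to -0.94 with each library left out in turn.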

How the results depend on the processing

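Over 23 alternatives per comparison (22 for the genotype difference between ages), 836 values of single members kept their direction and side of the threshold, 41 lost a call, 8 gained one and 27 changed direction. No member passed in young AKO relative to young WT or in the difference between ages under any alternative run. In old AKO relative to old WT, where 0 passed, DESeq2 called 2 (Ucp2 and Ucp1) and a fit of only those groups 1, and leaving out a library gave 0 to 2 (2 without old WT replicate 2, Ucp2 and Ucp1). These counts take in Ucp1 and Elovl3 where an alternative tests them, while the values of single members above are of the 8 genes tested with all libraries. In old WT relative to young WT, where 6 passed, it was 1 with transcripts not summed, 0 with only those groups and 1 to 6 with a library left out, 1 without old WT replicate 3 and 1 without young WT replicate 3. In old AKO relative to young AKO, where 2 passed, it was 0 with transcripts not summed, 4 with only those groups and 0 to 3 with a library left out, 0 without old AKO replicate 1. The cause of these differences was not tested, except that fits of fewer groups and libraries have fewer degrees of freedom. The counts of all genes called ranged from 4 to 1294 (147 as reported) for young genotypes, 4 to 1851 (897) for old genotypes, 1058 to 4516 (3451) for age in WT and 732 to 4100 (2766) for age in AKO, and 0 to 60 (1) for the difference between ages.

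Directions changed for values that did not pass, and for the called Prdm16 difference of old WT to young WT. For Prdm16 these were 1.24 in old AKO relative to old WT and -0.59 in old WT relative to young WT with transcripts not summed, and -0.30 to 0.015 in old AKO relative to old WT with a library left out. For Dio2 in old AKO relative to old WT voom gave -0.22, FPKM + 1 -0.0155 and FPKM + 0.1 -0.18, with -0.87 to 0.48 over libraries left out. For Dio2 in old WT relative to young WT voom gave 0.22 and FPKM + 0.1 0.21, with -0.74 to 0.99. Leaving out a library gave Dio2 -0.18 to 2.32 in young genotypes, -2.22 to 0.040 for age in AKO and -2.18 to 0.33 in the difference between ages. Ucp3 in old WT relative to young WT was 0.11 with voom, 0.20 with FPKM + 1, 0.23 with FPKM + 0.1 and 0.49 without both libraries that stand apart, with -0.35 to 0.55 over libraries left out. It was -0.031 to 0.87 in young genotypes, and in the difference between ages -0.034 without both libraries and -0.10 to 0.80 over libraries left out. Ppargc1a in the difference between ages was 0.60 with transcripts not summed, 0.10 without both libraries and -0.52 to 0.092 over libraries left out. Cox8b for age in AKO was -0.47 to 0.063 over libraries left out.

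Correlations of the deviations of same-numbered libraries ran from -0.203 to 0.068, so they showed no clear pairing by replicate number. They cannot exclude a pairing, because differently numbered libraries were not compared in this way. With the replicate block Ppargc1b in old WT relative to young WT was -0.94 (adjusted p = 0.0508, edgeR) and Ucp3 in that comparison 0.042. The block called 12 genes in old AKO relative to old WT and 54 in young AKO relative to young WT. Ucp1 and Elovl3 were limited by depth, with 221 and 85 reads over all libraries.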
